A study of Mus musculus with 12 samples.

Results

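Genes coding for proteins of the red cell membrane and for carbonic anhydrases were followed across 12 expression arrays of mouse myeloid cells: Rhag, Aqp1, Ermap, Ank1, Add2, Car1, Car2, Slc4a1 and Epb42. They are 9 of the 30142 genes that could be named from the array's annotation. Each was measured by 1 transcript cluster, the array's summary of all probes of a gene, and that cluster carried no other symbol (Rhag TC1700000817.mm.1, Aqp1 TC0600000664.mm.1, Ermap TC0400003418.mm.1, Ank1 TC0800000291.mm.1, Add2 TC0600000978.mm.1, Car1 TC0300001667.mm.1, Car2 TC0300000096.mm.1, Slc4a1 TC1100003833.mm.1 and Epb42 TC0200004475.mm.1). The 9 genes were chosen for their signals in neutrophils labelled Ezh2-null against wild-type neutrophils. That comparison, and those that share its arrays, are therefore described below without a test.

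The cells were HoxB8-ER cells, bone marrow progenitors of C57BL/6 mice carrying HOXB8 fused to the ligand-binding part of the estrogen receptor, which multiply as promyelocyte-like cells while 0.5 µM estradiol is given. Without estradiol they mature toward neutrophils over 6 days. The 12 arrays form 6 groups of 2: undifferentiated wild-type cells, undifferentiated Ezh2-null (Ezh2-/-) cells, neutrophils derived from wild-type cells, neutrophils derived from cells labelled Ezh2-null, wild-type neutrophils with GSK343, and wild-type neutrophils with vehicle. Ezh2 codes for the catalytic subunit of Polycomb repressive complex 2, which silences genes by methylating histone H3, and GSK343 inhibits that enzyme. GSK343 was given at 0.5 µM for 9 days in the sample labels and at 1 µM in the series text, so its dose is not settled here. All groups carry the HOXB8-ER transgene, and the wild-type cells came from littermates. The labels name neither the deleted part of Ezh2 nor the number of cell lines, so genotype and line cannot be told apart. They also do not say whether the 2 replicates of a group were separate cultures, so the p-values rest on the differences within pairs of arrays and these may be technical only.

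Ezh2 signal checked the labels first. It was 11.61 ± 0.06 (log2, SD, n = 2) in undifferentiated wild-type cells and 9.27 ± 0.25 (n = 2) in undifferentiated Ezh2-null cells, a fall of 2.34 (SE 0.155, limma with Benjamini-Hochberg adjusted p = 5.5e-05). In neutrophils it was 8.33 ± 0.02 (n = 2) in wild type and 8.88 ± 0.19 (n = 2) in the cells labelled Ezh2-null, which were thus not lower (0.55 higher, limma adjusted p = 0.0501). Where the probes lie relative to the deletion is not given in the sources used here. Medians over all clusters were 4.54 to 4.65 on the 8 genotype arrays and 3.88 to 3.96 on the 4 drug arrays, so levels are compared only within each of these array sets. Replicate arrays correlated at 0.984 to 0.995 across clusters, and 28.8% to 43.5% of the clusters on an array exceeded its background. Background, the 95th percentile of the 23 antigenomic (no-target) probe sets of an array, lay between 4.83 and 5.79.

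The red cell membrane is a lipid bilayer fastened to a spectrin meshwork. The anion exchanger band 3 (Slc4a1) is tied to spectrin through ankyrin (Ank1) and protein 4.2 (Epb42), while adducin (Add2 codes for its beta subunit) caps actin at the spectrin junctions. The Rh-associated glycoprotein (Rhag) and the water channel aquaporin-1 (Aqp1) sit in the same membrane. Carbonic anhydrases in the cytosol (Car1, Car2) interconvert carbon dioxide and bicarbonate, which band 3 exchanges for chloride. These proteins accumulate as erythroblasts mature, and GATA1 and KLF1 are known activators of the erythroid programme.

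Promoter windows from RefSeq (assembly GRCm38.p6) were given for 5 of the genes, Rhag, Aqp1, Ermap, Add2 and Epb42, and are shown because these genes moved together below. The 250 bases before the annotated start are printed 5′ to 3′ on the strand of the gene. Capitals mark matches to a GATA motif (the letters GATA with A or T before them and A or G after them) or to a KLF motif (CCNCNCCC), each searched on both strands; a match on the other strand appears as its reverse complement. The Rhag window is chr17:40810899-40811148 (plus strand), that of Aqp1 chr6:55336049-55336298 (plus), that of Ermap chr4:119189996-119190245 (minus), that of Add2 chr6:86028431-86028680 (plus) and that of Epb42 chr2:121036878-121037127 (minus).
Rhag: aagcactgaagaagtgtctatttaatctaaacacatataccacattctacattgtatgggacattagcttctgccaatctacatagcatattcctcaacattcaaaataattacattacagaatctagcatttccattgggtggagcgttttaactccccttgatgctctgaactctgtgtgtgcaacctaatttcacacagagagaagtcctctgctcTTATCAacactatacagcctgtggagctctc
Aqp1: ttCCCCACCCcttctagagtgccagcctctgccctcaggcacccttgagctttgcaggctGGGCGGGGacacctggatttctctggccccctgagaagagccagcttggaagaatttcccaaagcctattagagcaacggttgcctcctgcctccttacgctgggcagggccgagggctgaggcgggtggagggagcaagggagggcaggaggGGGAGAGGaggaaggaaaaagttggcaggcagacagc
Ermap: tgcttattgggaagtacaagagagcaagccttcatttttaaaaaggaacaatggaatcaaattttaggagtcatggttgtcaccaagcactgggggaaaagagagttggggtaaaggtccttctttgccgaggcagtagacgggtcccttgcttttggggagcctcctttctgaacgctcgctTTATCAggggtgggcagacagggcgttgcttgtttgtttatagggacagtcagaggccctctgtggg
Add2: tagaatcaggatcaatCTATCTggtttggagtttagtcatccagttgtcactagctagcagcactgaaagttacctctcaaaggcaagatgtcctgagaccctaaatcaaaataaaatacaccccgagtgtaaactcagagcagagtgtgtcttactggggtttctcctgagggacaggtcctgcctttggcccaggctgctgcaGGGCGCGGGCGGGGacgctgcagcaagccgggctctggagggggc
Epb42: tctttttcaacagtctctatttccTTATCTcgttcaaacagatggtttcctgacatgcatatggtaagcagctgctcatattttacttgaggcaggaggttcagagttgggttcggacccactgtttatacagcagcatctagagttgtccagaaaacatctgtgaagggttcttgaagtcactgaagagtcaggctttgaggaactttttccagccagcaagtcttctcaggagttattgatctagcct

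The windows of 4 of the 5 genes held 1 GATA match each, all read on the strand opposite to the gene. In Rhag it was TGATAA beginning 31 bases before the start, and in Ermap TGATAA at 67 bases. In Epb42 the match AGATAA began 226 bases before the start, and in Add2 AGATAG began at 234 bases. The Aqp1 window held no GATA match and 3 KLF matches, at 248, 190 and 37 bases before the start. Add2 held 2 overlapping KLF matches at 45 and 39 bases, and none was found in the other 3 windows. Over 32851 RefSeq windows of 300 bases, which reach 50 bases past the start, 29.76% held a GATA match and 49.47% a KLF match. The number of CpG dinucleotides was 1 in Rhag, 3 in Epb42, 5 in Ermap, 8 in Aqp1 and 11 in Add2, against a median of 7 over all windows. A match is a description of the letters and shows no binding.

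In neutrophils labelled Ezh2-null, all 9 genes were brighter than in wild-type neutrophils, with no overlap between the arrays of the 2 groups. Over all 65956 clusters tested, 23.6% were higher without overlap in this comparison. The fitted differences ran from 3.79 for Add2 to 11.01 for Car2 on the log2 scale, with a median of 7.51, while the median of all clusters was -0.03. All of them but Car2, 8 genes, lay at or under background on the other 10 arrays and above it on both arrays of neutrophils labelled Ezh2-null. This all-or-none pattern was shown by 227 clusters (0.344%), among them 119 named genes, of which 31 differed by at least as much as Add2 and 1, Rhag itself, by at least as much as Rhag. For a gene under background in one group, folds are lower bounds against the array background. Below that top group the 3 other genotype groups of these 8 genes were all at or under background, so no order is read among them. In bulk RNA, fewer cells that express a gene and less of its RNA per cell cannot be told apart.

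**Figure D1:**
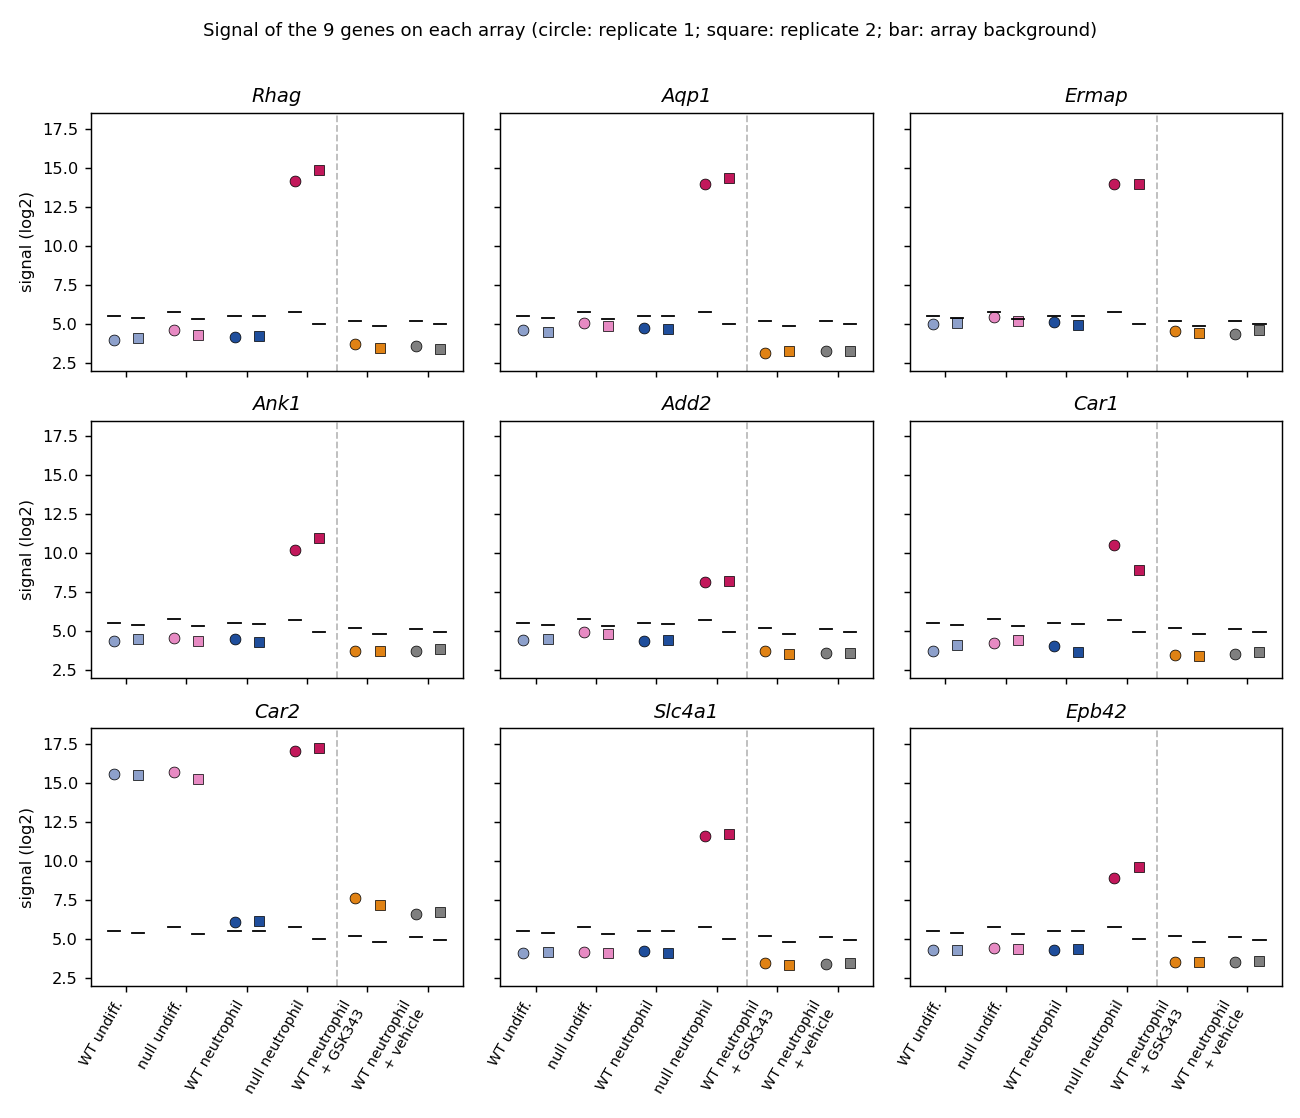
Log2 signal of each gene (y axis) on every array, by group (x axis); circles and squares are replicates 1 and 2, black bars the background of that array, and the dashed line separates the 8 genotype arrays from the 4 drug arrays. The 8 genes other than Car2 lie above the bars only in neutrophils labelled null, at 8.19 to 14.87, while Car2 is also high in both undifferentiated groups.

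Among the genes of the membrane skeleton, Ank1 codes for ankyrin-1. It read 4.41 and 4.52 in undifferentiated wild-type cells, 4.55 and 4.41 in undifferentiated Ezh2-null cells, 4.54 and 4.34 in wild-type neutrophils, and 10.25 and 10.97 in neutrophils labelled Ezh2-null. On the drug arrays it read 3.75 and 3.75 with GSK343 and 3.71 and 3.87 with vehicle. Only the neutrophils labelled null stood above background, by 6.17 over wild-type neutrophils (SE 0.210), which is at least 34.7-fold.

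Add2, beta-adducin, read 4.45 and 4.51 in undifferentiated wild-type cells, 4.94 and 4.80 in undifferentiated Ezh2-null cells, 4.38 and 4.45 in wild-type neutrophils, and 8.19 and 8.22 in neutrophils labelled Ezh2-null. With GSK343 it read 3.73 and 3.54, and with vehicle 3.58 and 3.59. Its 2 high arrays lay 0.03 apart, and its difference of 3.79 (SE 0.115, at least 6.55-fold) was the smallest of the 9.

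Epb42, protein 4.2, read 4.28 and 4.28 in undifferentiated wild-type cells, 4.40 and 4.32 in undifferentiated Ezh2-null cells, 4.31 and 4.34 in wild-type neutrophils, and 8.92 and 9.61 in neutrophils labelled Ezh2-null. The drug arrays read 3.55 and 3.52 with GSK343 and 3.55 and 3.58 with vehicle. The neutrophil difference was 4.93 (SE 0.191, at least 13.6-fold), with its 2 high arrays 0.69 apart.

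Of the membrane transporters, Slc4a1 codes for band 3, which binds both ankyrin and protein 4.2. It read 4.10 and 4.14 in undifferentiated wild-type cells, 4.14 and 4.10 in undifferentiated Ezh2-null cells, 4.23 and 4.11 in wild-type neutrophils, and 11.63 and 11.73 in neutrophils labelled Ezh2-null. Its drug arrays lay between 3.35 and 3.47. The 2 high arrays were 0.10 apart, and the difference was 7.51 (SE 0.110, at least 73.0-fold).

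Rhag, the Rh-associated glycoprotein, read 3.98 and 4.09 in undifferentiated wild-type cells, 4.60 and 4.26 in undifferentiated Ezh2-null cells, 4.17 and 4.22 in wild-type neutrophils, and 14.17 and 14.87 in neutrophils labelled Ezh2-null. The drug arrays lay between 3.39 and 3.69. Only Car2 had a larger neutrophil difference among the 9 genes than the 10.32 of Rhag (SE 0.224, at least 522-fold).

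Aqp1, which lets water cross the membrane, read 4.58 and 4.49 in undifferentiated wild-type cells, 5.06 and 4.87 in undifferentiated Ezh2-null cells, 4.73 and 4.65 in wild-type neutrophils, and 13.96 and 14.37 in neutrophils labelled Ezh2-null. The 4 drug arrays lay between 3.15 and 3.28. Its difference in neutrophils was 9.47 (SE 0.150, at least 408-fold).

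Ermap, an erythroid membrane protein of the immunoglobulin superfamily that carries the Scianna blood group in humans, read 4.97 and 5.08 in undifferentiated wild-type cells, 5.43 and 5.18 in undifferentiated Ezh2-null cells, 5.11 and 4.95 in wild-type neutrophils, and 13.98 and 13.94 in neutrophils labelled Ezh2-null. The drug arrays lay between 4.34 and 4.59, all under background. The difference of 8.93 (SE 0.140) is at least 354-fold, and its 2 high arrays differed by 0.04.

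The cytosolic enzymes did not share one pattern. Car1, carbonic anhydrase 1, read 3.74 and 4.11 in undifferentiated wild-type cells, 4.23 and 4.46 in undifferentiated Ezh2-null cells, 4.08 and 3.70 in wild-type neutrophils, and 10.53 and 8.93 in neutrophils labelled Ezh2-null. The drug arrays lay between 3.40 and 3.70. Its high arrays were 1.60 apart, and it was the only one of the 9 genes with array 1 above array 2 by more than 0.04. The difference of 5.84 (SE 0.415, at least 18.9-fold) became 5.04 without array 1 of the neutrophils labelled null and 6.64 without array 2, and Car1 alone among the 9 genes moved by more than 1.5-fold when 1 array was left out.

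Car2, carbonic anhydrase 2, was above background on all 12 arrays. It read 15.58 and 15.51 in undifferentiated wild-type cells, 15.71 and 15.27 in undifferentiated Ezh2-null cells, 6.10 and 6.17 in wild-type neutrophils, and 17.06 and 17.23 in neutrophils labelled Ezh2-null. On the drug arrays it read 7.64 and 7.16 with GSK343 and 6.58 and 6.70 with vehicle. In order, neutrophils labelled null came first, both undifferentiated groups next (0.05 apart and overlapping), and wild-type neutrophils last by 9.35. The neutrophil difference of 11.01 (SE 0.189) corresponds to a measured 2058-fold. Its arrays in neutrophils labelled null were 0.18 apart, less than any gap between groups other than that between the undifferentiated ones.

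A stricter background, the 95th percentile of 5222 negative control probe sets (8.43 to 10.91 by array), lowers these bounds. Against it the neutrophils labelled null were at least 14.3-fold higher for Rhag, 11.2-fold for Aqp1, 9.69-fold for Ermap, 88.1-fold for Car2 and 2.00-fold for Slc4a1. The Car2 levels in the drug groups were also under that limit. Ank1 and Car1 then gave no fold, and Add2 and Epb42 lay at or under that limit in both groups.

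Differentiation was described within each genotype. In wild-type cells Car2 differed by -9.41 on the log2 scale between neutrophils and undifferentiated cells, 678-fold lower, and the other 8 genes stayed at or under background, with differences of -0.06 to 0.17. In cells labelled Ezh2-null all 9 genes were higher in neutrophils than in undifferentiated Ezh2-null cells, with a median difference of 6.13. Car2 was 1.65 higher there (3.14-fold), starting from its high level. Rhag was at least 498-fold higher, Aqp1 at least 389-fold, Ermap at least 338-fold and Slc4a1 at least 69.6-fold. Ank1 (at least 33.1-fold), Car1 (at least 18.0-fold), Epb42 (at least 13.0-fold) and Add2 (at least 6.25-fold) followed. These values share arrays with the neutrophil comparison and are not separate evidence.

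Before differentiation, no gene of the 9 was called between genotypes. In undifferentiated cells limma called 2.99% of all clusters at an adjusted p under 0.05, 1.65% higher and 1.34% lower in Ezh2-null cells. The count of 1969 clusters became 962 without array 1 and 1060 without array 2 of the undifferentiated wild-type cells. Of the 9 genes, 2 had an unadjusted p under 0.05, as did 8134 of all clusters. Add2 was 0.39 higher in Ezh2-null cells (95% interval 0.14 to 0.65, unadjusted p = 0.00735, limma adjusted p = 0.143). Aqp1 was 0.42 higher (interval 0.09 to 0.76, unadjusted p = 0.0194, limma adjusted p = 0.248). Both genes, like all but Car2, lay at or under background in both groups, so these values are no measured levels.

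The intervals are for single genes and, unlike the calls, are not adjusted for the number of clusters. They therefore do not show how large a difference could have gone uncalled. For genes at or under background in both groups of undifferentiated cells they describe background signal and do not bound a difference in RNA. Car2, the only one of the 9 above background there, differed by -0.05 (interval -0.48 to 0.37, limma adjusted p = 0.971) with overlapping arrays. The interval was -0.11 to 0.90 for Rhag, -0.03 to 0.60 for Ermap, -0.46 to 0.49 for Ank1 and -0.52 to 1.36 for Car1. For Slc4a1 it was -0.25 to 0.25 and for Epb42 -0.35 to 0.51. Of the 9 genes, 6 were higher in Ezh2-null cells without overlap, against 18.0% of all clusters. The median difference of the 9 was 0.29 and that of all clusters -0.01.

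**Figure D2:**
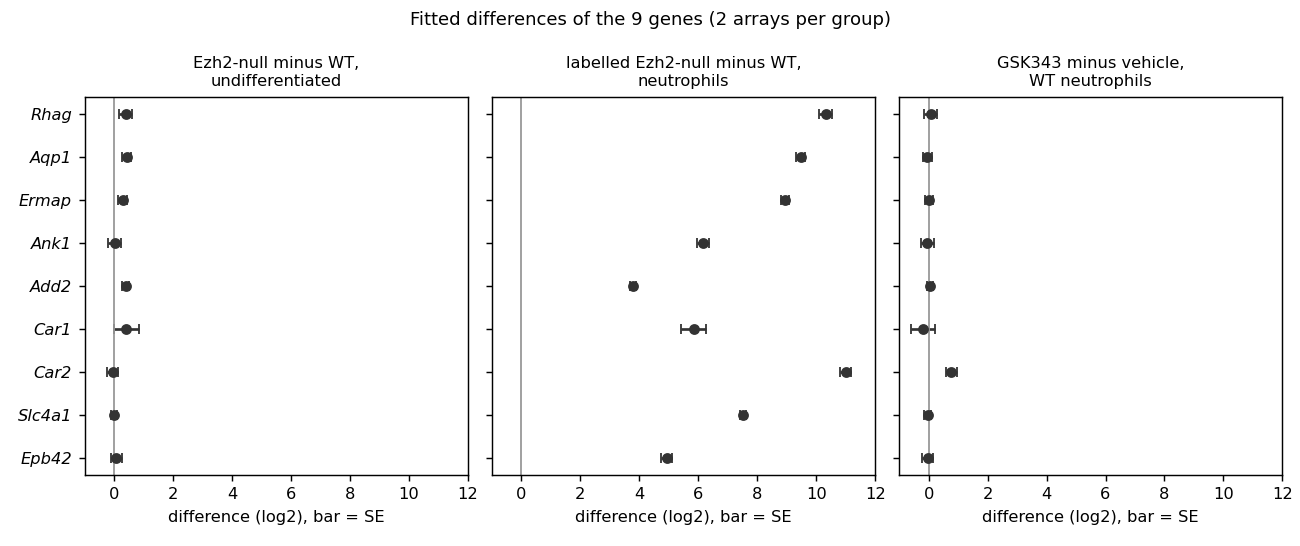
Fitted log2 difference (x axis, point with SE bar, 2 arrays per group) of each gene (y axis) between genotypes in undifferentiated cells, between genotypes in neutrophils, and between GSK343 and vehicle. Points in the first and last panels lie between -0.18 and 0.76, and those in the middle panel run from 3.79 to 11.01.

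GSK343 was compared with vehicle in wild-type neutrophils, which addresses inhibition of the enzyme in place of its loss. None of the 9 genes was called by limma, which called 0.00152% of all clusters, a single one, Cpa3. That call was lost without each of the 4 arrays in turn, with a limma adjusted p of 0.278 without GSK343 array 1, 0.0703 without GSK343 array 2, 0.427 without vehicle array 1 and 0.354 without vehicle array 2. The count over all clusters was then 0, except for 2 other clusters without GSK343 array 2. Car2 was the only one of the 9 with an unadjusted p under 0.05, as 3963 of all clusters had. Its difference was 0.76 (SE 0.189, interval 0.34 to 1.19), or 1.70-fold, with an unadjusted p of 0.00283 and a limma adjusted p of 0.412. Both GSK343 arrays exceeded both vehicle arrays for Car2, as they did for 19.5% of all clusters. Leaving out 1 array at a time gave 0.53 to 1.00, with no call. Beside it, the summed signal (log2 of the sum of linear values) of 12 mast cell and basophil markers was 15.07 to 15.12 with GSK343 and 13.60 to 13.65 with vehicle, with no call among them but that of Cpa3. That of 5 eosinophil markers was 14.17 to 14.55 with GSK343 and 10.81 to 11.44 with vehicle, and none was called. The mast cell sum rose mostly through Cpa3 (14.88 and 14.79 with GSK343, 11.76 and 11.93 with vehicle), while Hdc was 0.71 lower. The eosinophil sum rose mostly through Prg2 (14.51 and 14.12 with GSK343, 11.08 and 10.22 with vehicle). Epx and Prg3 were also higher, Siglecf was 0.60 lower, and Il5ra was at or under background in both groups. The part of these cells in the Car2 difference was not tested.

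The other 8 genes stayed at or under background with GSK343 and with vehicle. Their differences ran from -0.18 for Car1 to 0.07 for Rhag, each with a limma adjusted p of 1. The widest interval was that of Car1 (-1.12 to 0.75) and the narrowest that of Slc4a1 (-0.28 to 0.22). The median over the 9 genes was -0.03, against 0.00 over all clusters.

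Other genes of the red cell membrane were taken from lists of the same functions, leaving out the 9. In neutrophils, limma called 6.75% of all clusters higher and 5.06% lower in the cells labelled Ezh2-null. Of 9 other membrane skeleton genes, 4 were called higher and 3 lower. In a fit of the 8 genotype arrays 2 were called lower. The lower count also dropped without wild-type neutrophil array 1 and without either array of neutrophils labelled null. Sptb, beta-spectrin, read 4.54 to 4.69 on the other 6 genotype arrays and 11.11 and 11.79 in neutrophils labelled null, a difference of 6.90 (at least 62.2-fold). Tmod1, a cap of actin ends, was 2.85 higher and Gypc, glycophorin C, 2.54 higher. Stom, stomatin, fell by 1.31, from 14.71 and 15.18 to 13.71 and 13.57. The median of these 9 other genes was -0.31.

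Blood group and other surface proteins had 9 measured genes besides Rhag and Ermap, of which 5 were called higher and none lower. After quantile normalization 1 was called lower. Kel, the Kell endopeptidase, read 4.37 and 4.43 in wild-type neutrophils and 10.58 and 10.87 in those labelled null (6.32 higher). Rhd, the Rh protein partner of Rhag, went from 4.35 and 4.41 to 9.50 and 10.06 (5.40 higher). Xk, which is bound to Kell, was 2.50 higher, and Art4, the Dombrock antigen, 2.06 higher. Kel, Rhd and Art4 shared the all-or-none pattern of the 8 genes, as did Sptb and Tmod1. Art4 was close to background even so, at 5.86 and 5.62 in neutrophils labelled null (at least 1.19-fold). Icam4, also called higher, exceeded background on 1 array only.

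Of 13 other transporters, 10 were called higher and none lower in neutrophils labelled null. The count was 9 after median centring, in a fit of the 8 genotype arrays, with a replicate block and with a trended robust variance. Slc14a1, a urea channel, was 5.39 higher (at least 29.7-fold) and Tfrc, the transferrin receptor, 4.03 higher (16.3-fold). Abcg2, an exporter of porphyrins, was 3.90 higher and Slc16a1, a lactate carrier, 3.52 higher. In undifferentiated wild-type cells Tfrc read 13.97 and 14.24 and Slc16a1 read 12.07 and 12.13. Both fell with differentiation in wild type (-4.26 and -5.62). Between undifferentiated and neutrophil cells labelled Ezh2-null, Tfrc differed by 1.32, Slc16a1 by -1.55, Abcg2 by 0.03 and Slc14a1 by 2.35. None of the 13 shared the all-or-none pattern. Outside these membrane lists it was shared by Gata1, Klf1, Epor and Alas2 and by the mast cell and basophil markers Mcpt4 and Fcer1a.

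The other carbonic anhydrases were near background in neutrophils, while Car8, Car9 and Car12 exceeded it on both arrays of an undifferentiated group. Besides Car1 and Car2, 14 were measured, and limma called none of them in neutrophils in either direction. None lay above background on both arrays of the neutrophils labelled null. Their median difference was -0.02, against 5.84 and 11.01 for Car1 and Car2.

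Of 11 erythroid regulators, 9 were called higher in neutrophils labelled null and none lower (1 lower without wild-type neutrophil array 2), with a median of 2.44. Zfpm1, the GATA1 cofactor FOG1, was 5.31 higher and Gfi1b, a repressor that works with GATA1, 4.44 higher. Klf1, an activator of red cell genes, went from 4.74 and 4.82 to 8.88 and 9.39, and Bcl11a, a repressor of embryonic and fetal globin, was 3.81 higher. Myb, Tal1 and Ldb1, also called higher, were not above their level in undifferentiated Ezh2-null cells (differences of -4.59, -0.28 and -0.18). In wild type they fell further with differentiation (-7.39, -1.96 and -1.06). Gata1, Klf1, Zfpm1, Gfi1b, Epor and Bcl11a were higher than in undifferentiated Ezh2-null cells. Of 10 genes of haem and globin synthesis, 6 were called higher and none lower. Cpox was 6.39 higher, Alad 4.32, Alas2, the first enzyme of haem synthesis in red cells, 3.22 and Fech, which inserts the iron, 3.10. The adult globin genes were not measured alone. Named after their values were seen, the embryonic globins Hbb-y, Hbb-bh1 and Hba-x differed by 0.05, 0.03 and 0.18 and were not called. Hbb-bh1 and Hba-x were at or under background on all arrays, and Hbb-y exceeded it on 1 array only.

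**Figure D3:**
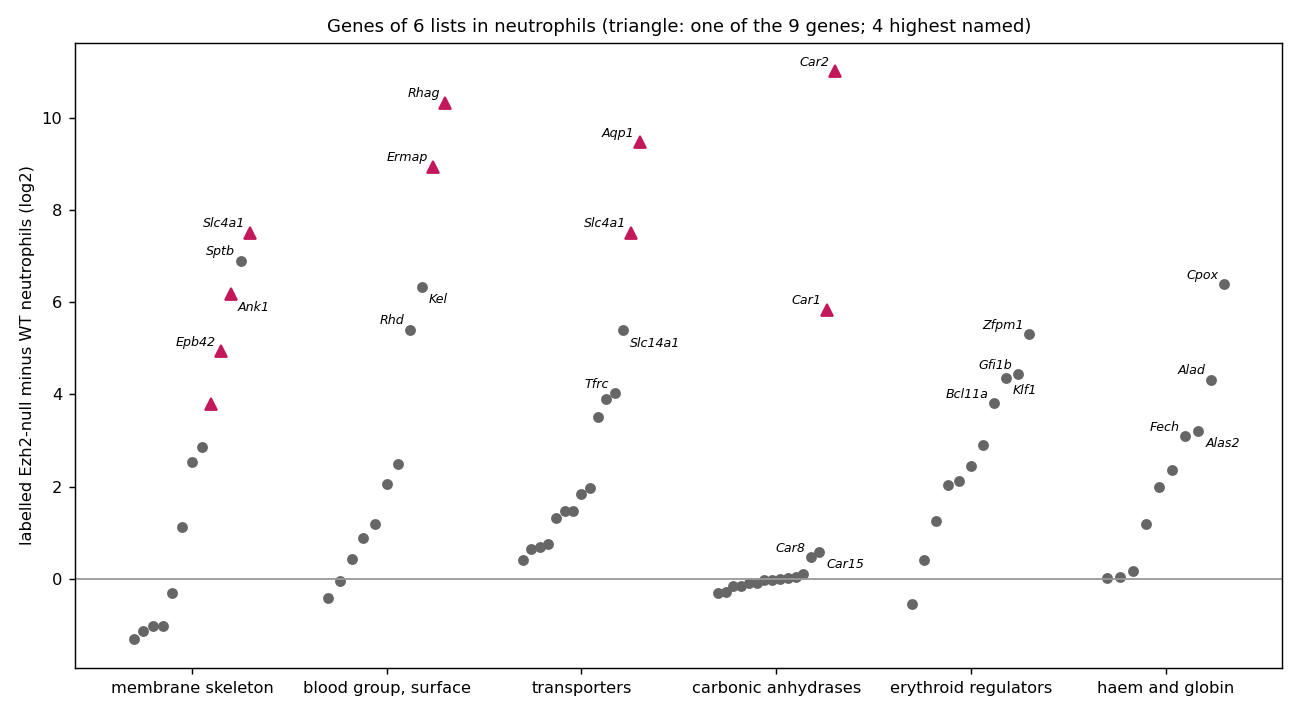
Difference in log2 signal between neutrophils labelled Ezh2-null and wild-type neutrophils (y axis) for every measured gene of 6 lists (x axis); triangles are the 9 genes and circles the others, with the 4 highest of each list named. Car1 and Car2 stand at 5.84 and 11.01 above the other 14 carbonic anhydrases, which lie near 0.

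In undifferentiated cells these lists held 10 calls among genes other than the 9. Abcg2 was 3.97 higher in Ezh2-null cells (limma adjusted p = 3.2e-05), from 4.52 and 4.45 to 8.57 and 8.35. Slc14a1 was 2.86 higher (limma adjusted p = 0.0117), from 5.24 and 5.12 to 9.02 and 7.06. Among regulators Bcl11a was 2.39 higher (limma adjusted p = 0.00178), Zfpm1 0.89 (0.0207) and Gata1, under background in both groups, 0.62 (0.0128). Among carbonic anhydrases Car12 was 2.47 higher (0.00163), Car8 fell by 1.91 (0.0234) and Car5b, under background in both groups, fell by 0.60 (0.0343). In the membrane skeleton Mpp1 fell by 1.29 (0.0207) and Stom by 1.10 (0.0234). In the same fit the 9 surface genes and the 10 haem and globin genes held no call, against 2.99% of all clusters.

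Only the calls of Abcg2, Bcl11a and Car12 held without each undifferentiated array in turn. Without array 1 of the undifferentiated wild-type cells the limma adjusted p was 0.0797 for Slc14a1, 0.143 for Car8, 0.113 for Gata1, 0.0916 for Zfpm1, 0.0726 for Stom and 0.246 for Car5b. Without array 2 of these cells it was 0.0884, 0.127, 0.0625, 0.14, 0.16 and 0.0897 in the same order, and 0.144 for Mpp1. Without array 2 of the Ezh2-null cells it was 0.0735 for Zfpm1, 0.0744 for Stom, 0.0659 for Mpp1 and 0.0594 for Car5b, which was also lost without array 1 (0.103).

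The profiles of the 8 genes other than Car2 ran nearly in parallel. Across the 8 genotype arrays the 28 pairs among them correlated at Pearson r of 0.967 to 0.9998, while pairs with Car2 gave 0.4675 to 0.5297. These arrays share groups and the genes were chosen on some of them, so the values describe the profiles only. The mean of the 9 centred profiles was then set against 2542 other named genes that ranged over at least 3 log2 units and exceeded background on both arrays of a group. The 10 most alike were Sox6, Cd55, Abcb4, Slc38a5, Fhdc1, Klf1, Trim10, Aldh1a1, Hemgn and Atp7b, with r of 0.9892 to 0.9943. Among the 9 themselves, r with that mean was 0.9767 to 0.9941, except 0.6027 for Car2.

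Of these alike genes Aldh1a1, a retinaldehyde dehydrogenase, had the largest neutrophil difference, 8.26, from 4.46 and 4.14 in wild type to 12.26 and 12.86 in cells labelled null. Abcb4, a phospholipid exporter, differed by 6.28, Cd55, a regulator of complement on red cells, by 5.77 and Hemgn, a nuclear protein of blood progenitors, by 5.74. Klf1, in the list of regulators as well, differed by 4.35, and Fhdc1 by 4.22. Slc38a5, an amino acid carrier, differed by 4.14, Atp7b, a copper pump, by 4.04 and Sox6, a factor of late erythroid maturation, by 3.49. Trim10 had the smallest difference of the 10, 2.96, from 4.41 and 4.44 to 7.27 and 7.51.

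**Figure D4:**
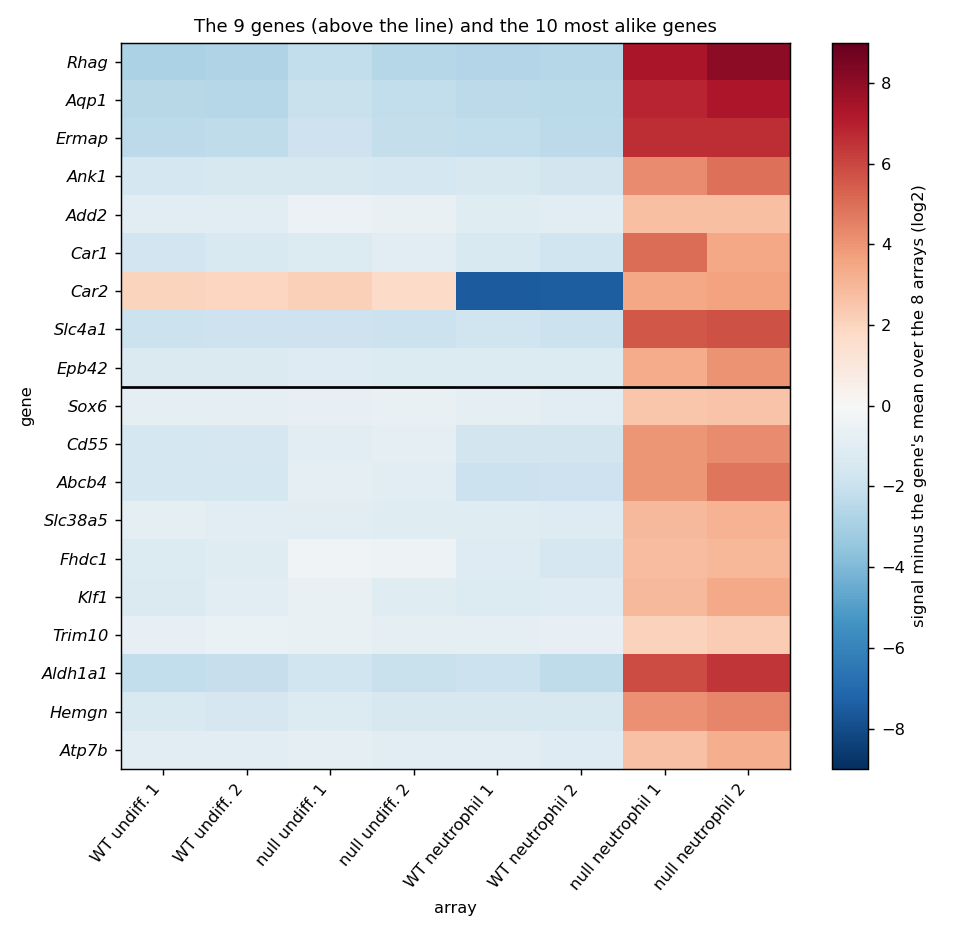
Log2 signal minus each gene's mean over the 8 genotype arrays (colour) for the 9 genes, above the line, and the 10 genes most like their mean profile, below it (rows), by array (columns). All rows are red in the last 2 columns, the neutrophils labelled null, and Car2 is the row that is also above its mean in undifferentiated cells.

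Markers of other cell types were followed beside the 9 genes. All 12 neutrophil markers were above background in every neutrophil group, and their summed signal was 20.22 to 20.74 in neutrophils labelled null against 20.85 to 21.44 in wild-type neutrophils. Of them, 4 were called lower: Camp fell by 4.74, Ly6g fell by 3.38, Ltf fell by 1.99 and Lcn2 fell by 1.93. Without wild-type neutrophil array 1, 2 were called lower, and 3 without array 2 of the neutrophils labelled null. Of 12 mast cell and basophil markers, 11 were called higher (10 in a fit of the 8 genotype arrays), with sums of 19.39 to 19.43 against 12.11 to 13.65. Of these 11, Tpsab1 was at or under background on all arrays. Tpsb2 was 11.97 higher, Cpa3 11.47, Cma1 8.24 and Mcpt8 6.44. In undifferentiated cells, where 8 of the 9 genes were at or under background, that sum was 18.85 to 18.95 in wild type and 18.13 to 18.51 in Ezh2-null. There Cpa3 alone read 18.75 and 18.86 in wild type and 17.95 and 18.26 in Ezh2-null. Tpsb2, Cma1, Mcpt4 and Fcer1a, the last pair named after their values were seen, were at or under background on all 4 undifferentiated arrays and above it on both arrays of neutrophils labelled null. The part of mast cell or basophil RNA in the neutrophil difference of the 9 genes was not tested.

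The remaining marker lists held 0 to 5 calls each in neutrophils. Of 6 megakaryocyte markers, 1 was called higher, Itga2b by 1.75, the sum was 10.07 to 10.91 against 9.72 to 12.27, and Gp6 was at background. Of 11 macrophage markers, 1 was called higher and 4 lower (sums 15.29 to 15.69 against 16.43 to 17.53). The higher call was that of Slc40a1, by 0.87. It was lost after quantile normalization, in a fit of the 8 genotype arrays, with the replicate block and with a trended robust variance. It was also lost without wild-type array 2 and without either array labelled null. In undifferentiated cells the macrophage marker Adgre1 was called 2.30 lower in Ezh2-null cells (limma adjusted p = 0.0421), a call that held under 6 of 12 alternatives. Of 5 eosinophil markers, 1 was called higher in neutrophils labelled null, Il5ra by 1.02 (sums 9.87 to 10.74 against 10.31 to 10.43). Il5ra was at or under background in both groups, as was Epx. No endothelial marker of 7 was called (7.52 to 7.66 against 7.70 to 7.76), and Cdh5, Kdr, Tek, Cldn5, Emcn and Esam were at background. Acp5 was the 1 of 6 osteoclast markers called higher (3.78, sums 11.22 to 14.07 against 10.87 to 12.03), with Calcr and Ocstamp at background, and 3 were called higher without array 1 of the neutrophils labelled null. None of 6 lymphoid markers exceeded background in neutrophils of either genotype (6.78 to 6.80 against 6.75 to 6.82). The part of these cells in the results was not tested.

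**Figure D5:**
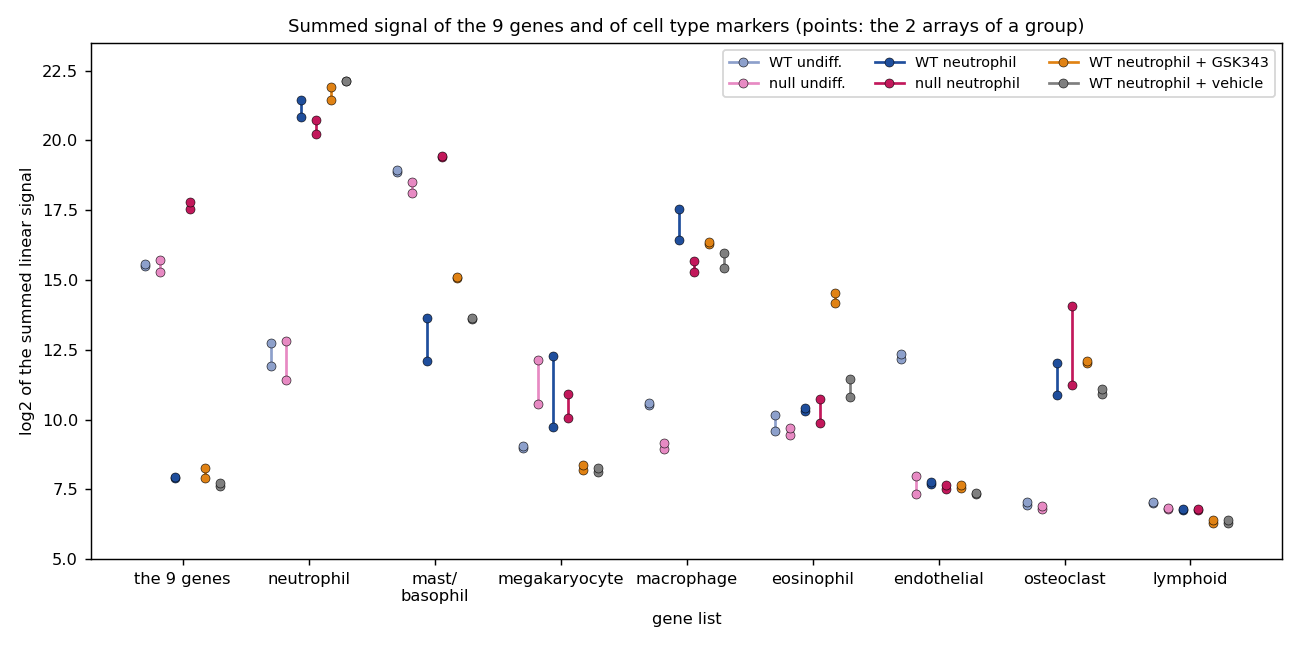
Log2 of the summed linear signal (y axis) of the 9 genes and of 8 lists of cell type markers (x axis); points are the 2 arrays of a group, joined by a line and coloured by group. The sum of the 9 genes and that of mast cell and basophil markers are both higher in neutrophils labelled null than in wild-type neutrophils, and in undifferentiated cells the mast cell sum is also high, mostly through Cpa3, as is the sum of the 9 through Car2.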

How the data were processed

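The assay was the Affymetrix Mouse Transcriptome Array 1.0 on 250 ng of RNA per sample. The authors deposited 1 log2 signal per cluster and array, and the submitters' processing notes name Transcriptome Analysis Console and Affymetrix Expression Console. How signals were summarised, on which build and with which versions is not given in the sources used here. Of 72688 entries, 6732 control probe sets were left out. Of the 65956 clusters tested, 30604 carried 1 symbol, 2146 several and 33206 none; symbols were updated by Entrez ID through RefSeq (GRCm38.p6), which matched 22818 and changed 827, among them that of Epb42.

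One limma fit (version 3.58.1, R 4.3.3) of 6 group means on all 12 arrays with eBayes was used, adjusted by Benjamini-Hochberg over all clusters, with calls at an adjusted p under 0.05. The fit had 6 residual degrees of freedom, and the number of arrays limits its precision. It was also run on simulated arrays with independent noise and changes planted only in undifferentiated Ezh2-null cells. That simulation cannot show how the fit behaves if the replicates are technical only. Genes and lists were chosen with earlier results of these data known. Besides the 9, the genes named include the listed genes called in a tested comparison and the 10 most alike. They also include up to 4 per list with the largest absolute neutrophil difference. Other genes, such as Gp6, Emcn, Esam, Hdc, Tpsab1, Myb, Tal1, Ldb1 and Icam4, were named outside this rule. Alternatives were other scalings, subsets of arrays or clusters, a replicate block, another variance model, another background limit, and each array left out.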

Additional observations from a re-analysis of the deposited data

Results flagged for a closer look

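For 10 listed genes other than the 9, the genotype difference was called in undifferentiated cells and also differed between neutrophils and undifferentiated cells, as tested by the interaction term of the limma fit (adjusted p under 0.05). The value for each is the neutrophil difference minus the undifferentiated difference on the log2 scale. Among carbonic anhydrases it was 2.39 for Car8 and -2.36 for Car12, both at or near background in neutrophils. Among erythroid regulators it was 4.42 for Zfpm1 and 1.42 for Gata1. Among neutrophil markers it was 6.03 for Mmp8, -4.0 for S100a9 and -4.20 for Ltf. Their undifferentiated differences were -6.43, 3.66 and 2.21, and their neutrophil differences -0.39, -0.34 and -1.99, in that order. Among mast cell and basophil markers it was 11.11 for Mcpt8 and 2.61 for Gata2, and it was 5.17 for Pecam1. For Mcpt8, Gata2 and Pecam1 the undifferentiated differences were -4.67, 1.53 and -5.45, and the neutrophil differences 6.44, 4.1 and -0.28. The positive values of Mmp8 and Pecam1 thus do not mean a higher signal in neutrophils labelled null. Of the 10 calls in undifferentiated cells, those of Mmp8, Mcpt8 and Pecam1 held under 12 of 12 alternatives and that of Car12 under 11. Those of Car8, Gata1, Zfpm1, S100a9, Ltf and Gata2 were lost without either wild-type undifferentiated array, and those of Zfpm1 and Gata2 also without Ezh2-null undifferentiated array 2. Without wild-type undifferentiated array 1 and then array 2, the limma adjusted p was 0.0565 and 0.0917 for S100a9, 0.117 and 0.0925 for Ltf, and 0.156 and 0.186 for Gata2. It was 0.143 and 0.127 for Car8, 0.113 and 0.0625 for Gata1, and 0.0916 and 0.14 for Zfpm1. Without Ezh2-null undifferentiated array 2 it was 0.101 for Gata2 and 0.0735 for Zfpm1. The interaction itself was not recomputed without single arrays.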

How the results depend on the processing

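None of the 9 genes was called in undifferentiated cells or with GSK343 under any alternative run. The median differences of the 9 in neutrophils and with differentiation, recomputed under both other scalings and without each array, moved by less than the replicate spread. In neutrophils 51 of 54 recomputed differences moved by less than the replicate SD, and all 54 kept their sign. Of the uncalled differences near 0, 6 of 108 changed sign in undifferentiated cells and 8 of 108 with GSK343.

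Counts over all clusters moved. The 1969 calls in undifferentiated cells became 351 in a fit of only the 4 arrays compared and 1061 in a fit of the 8 genotype arrays, both with fewer samples, and 962 to 2776 without each array in turn. The single call with GSK343 became 3 after quantile normalization, 8 after median centring, 2 among clusters above background, 9 among 1-symbol clusters, 3 with a trended robust variance, and 0 to 2 without each array; apart from the smaller sets of clusters and arrays, the cause was not tested. The deviations of same-numbered replicates correlated at -0.109 to 0.185 among genotype groups and at -0.193 between GSK343 and vehicle. Such weak correlations cannot settle whether same-numbered samples were paired, which the labels do not say. The main fit treated the samples as unpaired. With the replicate block, 1831 clusters were called in undifferentiated cells and 2 with GSK343, and none of the 9 genes in either. Exchanging the vehicle numbers, an alternative chosen after seeing the data, gave 1 call with GSK343. Of the calls of other listed genes in undifferentiated cells, checked under the same alternatives after seeing the data, that of Abcg2 held in 12 of 12, that of Zfpm1 in 6 and that of Car5b in 4 of 11. Signals under background limit what can be said of 8 of the 9 genes outside neutrophils labelled Ezh2-null.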
